A study of Mus musculus with 4 samples.

Results

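Small nucleolar RNAs (snoRNAs) are short non-coding RNAs that work in the nucleolus, where ribosomal RNA is made and modified. Box C/D snoRNAs pair with ribosomal RNA and direct methylation of its riboses, and box H/ACA snoRNAs direct the change of uridine into pseudouridine. A few members of each class help to cleave the ribosomal RNA precursor instead. In mammals most are cut from introns of host genes, many of which code for ribosomal proteins or are non-coding, and each is bound by a set of core proteins.

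The genes described here are those of Snord (box C/D) and Snora (box H/ACA) symbols on Affymetrix Gene 1.0 ST arrays. A probe set was taken when the platform annotation gave it exactly 1 symbol, and this symbol began with Snord or Snora. This gave 51 genes from 56 probe sets, of 19935 genes in all, and 31 of them were box C/D and 20 box H/ACA. In 46 genes there was 1 probe set, and in 5 genes the mean of 2 was used, which differed by at most 0.04 on the log2 scale on any array. Another 41 probe sets name a snoRNA among several symbols and were not used here. Each of the 51 genes had an entry in RefSeq's GRCm38.p6 gene table, in which the box C/D genes span 45 to 148 nucleotides (median 68) and the box H/ACA genes 61 to 205 (median 125).

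The cells were mouse Ba/F3 cells, a haematopoietic line that needs the cytokine IL-3 unless an oncogene such as BCR-ABL replaces it. The 4 arrays were of cells with doxycycline-inducible BCR-ABL grown in 500 ng/ml doxycycline with IL-3 (n = 1), the same kind of cells in 500 ng/ml doxycycline and no IL-3 (n = 2, called A and B), and parental cells grown with IL-3 (n = 1). Per the series' design text, the arrays address genes driven by BCR-ABL and by a growth factor that gives resistance to imatinib. No doxycycline is named for the parental cells, so BCR-ABL, doxycycline and, without IL-3, the missing cytokine cannot be told apart in a comparison with them. The labels do not name separate cultures for A and B, so p-values measure only the spread between those 2 arrays, which may be technical.

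Every deposited value is a difference from the parental array, taken here to be on a log2 scale, although the base is not stated. The parental value is therefore 0 by construction and no absolute level is known. A presence check of the cell line's markers was therefore not possible. The 7 measured markers were Ptprc, Il3ra, Csf2rb, Kit, Vpreb1, Igll1 and Dntt. Their differences between BCR-ABL cells without IL-3 and parental cells had a median of -0.17, and limma called 0 of 7. All 7 were below 0, and the lowest were Il3ra at -0.51 (limma adjusted p = 0.054) and Ptprc at -0.41. RNA was isolated with a kit that retains small RNA, but was labelled as whole-transcript cDNA, so a probe in a snoRNA can also report unspliced host RNA or excised introns. Mature snoRNA and these longer forms cannot be told apart on these arrays. Fewer cells with a given RNA and less of it per cell cannot be told apart either.

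In BCR-ABL cells without IL-3, most snoRNA genes lay close to their parental level. Snord52, Snord42b, Snora23 and Snora20 were higher by 1.46- to 1.63-fold, and Snord104 was lower by 1.43-fold. The tests came from 1 limma model over all genes. It shares the spread of A and B over all genes as a prior, here of 16.38 degrees of freedom and an SD of 0.128. A gene's own pair adds 1 degree of freedom, so its SE and p-value come mostly from that prior. The p-values were adjusted by Benjamini-Hochberg, and called genes are those with an adjusted p under 0.05. On this rule 4 of 51 snoRNA genes were called higher, where 5.19% of all genes were, and 1 of 51 was called lower, where 2.87% of all genes were. At an unadjusted p under 0.05 there were 9 higher and 5 lower of 51, against 9.76% and 6.86% of all genes. The SD of B minus A was 0.31 over snoRNA genes and 0.20 over all other genes. With a variance estimated from the 51 snoRNA genes alone, an alternative added after seeing the data, 0 of 51 were called in either direction (4 higher and 0 lower at an unadjusted p under 0.05). With each array centred on the median of its genes, 2 were called higher (Snord42b and Snord52) and 0 lower.

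The middle of both classes moved little. The median difference between BCR-ABL cells without IL-3 and parental cells was 0.03 over the 31 box C/D genes (lowest -0.51, highest 0.71), with 17 above 0 and 14 below. It was 0.00 over the 20 box H/ACA genes (lowest -0.47, highest 0.56), with 10 above and 10 below, and the class median was 0.06 on A and -0.04 on B. The median over all 19935 genes was -0.04.

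**Figure D1:**
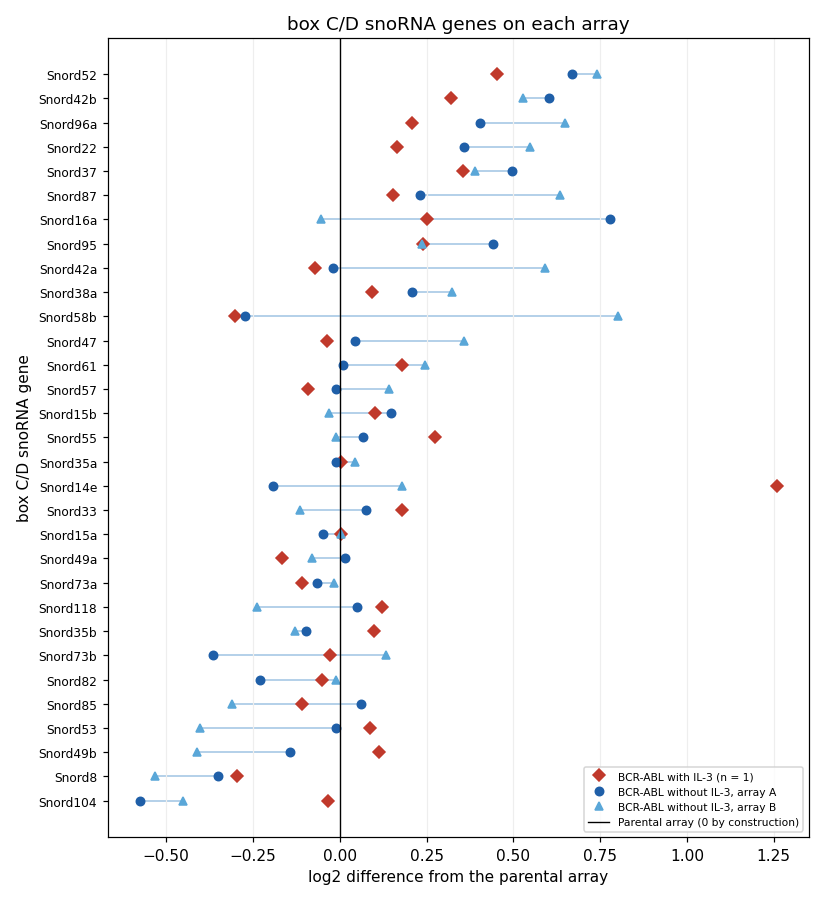
Log2 difference from the parental array (x axis) of the 31 box C/D snoRNA genes (rows), on the array with IL-3 (diamond) and the arrays A (circle) and B (triangle) without IL-3, which a line joins. Snord14e stands apart on the array with IL-3, at 1.26, and Snord58b has the longest line.

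By the mean of A and B, Snord52 was the box C/D gene farthest above the parental array, although Snord16a was higher on A, Snord58b on B and Snord14e with IL-3. Its differences were 0.45 on the array with IL-3, 0.67 on A and 0.74 on B. All 3 BCR-ABL arrays lay above the parental one, and the array with IL-3 was the lowest of the 3. Without IL-3 it was 0.71 ± 0.15 above parental (SE; adjusted p = 0.00604), or 1.63-fold. Snord52 guides a methylation of the large-subunit ribosomal RNA in humans. Its probe set was dim, meaning that a stored signal on some array was in the lower part of the log2 range.

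Snord42b, a guide to small-subunit ribosomal RNA in humans, had differences of 0.32 with IL-3, 0.60 on A and 0.53 on B. Here too all 3 BCR-ABL arrays were above the parental one. Without IL-3 it was 0.57 ± 0.15 above parental (SE; limma adjusted p = 0.0271), or 1.48-fold. Its copy Snord42a stood at -0.07 with IL-3, -0.02 on A and 0.59 on B, so only B was high. Copies share sequence, and values of either are uncertain where a probe can bind both.

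Below the called genes came Snord96a, Snord22 and Snord37. Snord96a, a guide to ribosomal RNA in humans, had differences of 0.21 with IL-3, 0.40 on A and 0.65 on B, and narrowly missed the threshold (adjusted p = 0.0534). Snord22, which is needed for processing of the small-subunit RNA in Xenopus, had 0.16 with IL-3, 0.36 on A and 0.55 on B (adjusted p = 0.1001). Snord37 had 0.36 with IL-3, 0.50 on A and 0.39 on B (adjusted p = 0.101). In each of these genes all 3 BCR-ABL arrays were above the parental array and the array with IL-3 was the lowest.

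By the mean of A and B, Snord104 was the box C/D gene farthest below the parental array, although Snord8 was lower on B and with IL-3. It stood at -0.03 with IL-3, -0.58 on A and -0.45 on B. Without IL-3 it was -0.51 ± 0.15 from parental (SE; adjusted p = 0.0494), just inside the threshold. Both arrays without IL-3 were low and the array with IL-3 was near the parental one. Snord8 stood at -0.30 with IL-3, -0.35 on A and -0.53 on B (adjusted p = 0.110), below the parental array on all 3.

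The other named box C/D genes that were below parental without IL-3 did not pass. Snord49b stood at 0.11 with IL-3, -0.14 on A and -0.41 on B. Snord53 had 0.09 with IL-3, -0.01 on A and -0.40 on B, and Snord82 had -0.05 with IL-3, -0.23 on A and -0.01 on B. In each of the last 2, one array without IL-3 lay within 0.02 of parental.

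**Figure D2:**
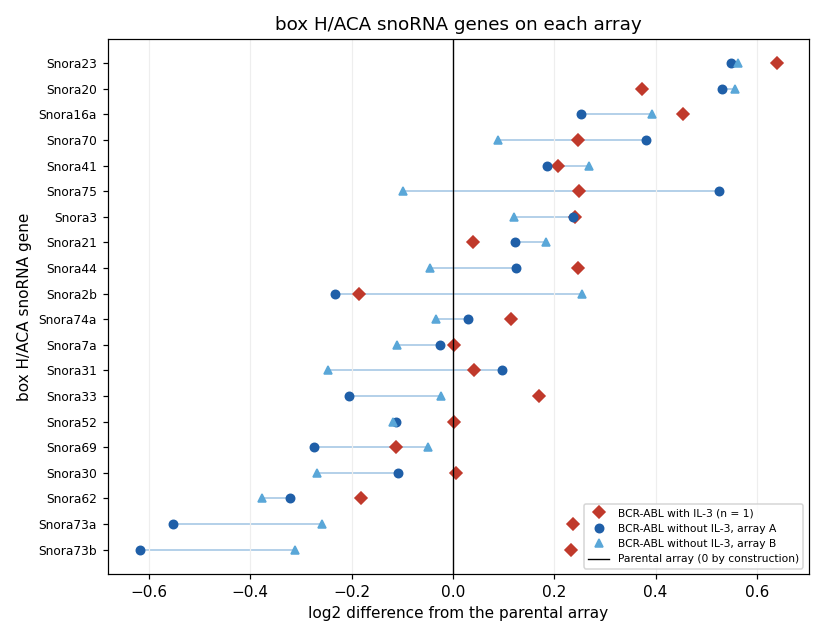
Log2 difference from the parental array (x axis) of the 20 box H/ACA snoRNA genes (rows), on the array with IL-3 (diamond) and the arrays A (circle) and B (triangle) without IL-3, which a line joins. Snora23 and Snora20 sit to the right on all 3 arrays, and Snora73a and Snora73b have the diamond to the right of 0 and both other points to the left.

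Among box H/ACA genes, Snora23 and Snora20 were called, and A and B were close in both. Snora23, a guide to large-subunit ribosomal RNA in humans, had differences of 0.64 with IL-3, 0.55 on A and 0.56 on B. The 3 BCR-ABL arrays were within 0.1 of each other. Without IL-3 it was 0.56 ± 0.15 above parental (SE; adjusted p = 0.0295), or 1.47-fold. Snora20, a guide to small-subunit ribosomal RNA in humans, had 0.37 with IL-3, 0.53 on A and 0.56 on B. Without IL-3 it was 0.54 ± 0.15 above parental (SE; adjusted p = 0.0339). Its probe set was dim. Snora16a came next, with 0.45 with IL-3, 0.25 on A and 0.39 on B (adjusted p = 0.313).

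Lowest in this class by the mean of A and B were the copies Snora73a and Snora73b (U17), which act in cleavage of the ribosomal RNA precursor rather than in modification. Snora73b stood at 0.23 with IL-3, -0.62 on A and -0.31 on B. Snora73a stood at 0.24 with IL-3, -0.55 on A and -0.26 on B. Both copies were above the parental array with IL-3 and below it on both arrays without. Neither passed against parental cells (adjusted p = 0.109 for Snora73b and 0.182 for Snora73a), and the 2 are not independent, since copies share sequence. Snora62, a guide to large-subunit RNA in humans, had -0.18 with IL-3, -0.32 on A and -0.38 on B (adjusted p = 0.238).

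Adding IL-3 to BCR-ABL cells left 1 snoRNA gene called. This was Snord14e, a copy of U14, which is needed for cleavage of the small-subunit RNA in yeast and also guides a methylation. It stood at 1.26 with IL-3, -0.19 on A and 0.18 on B. The array with IL-3 was far above the 3 others, and A and B lay on either side of the parental array. With IL-3 it was 1.26 ± 0.17 above BCR-ABL cells without IL-3 (SE; adjusted p = 0.0182), or 2.403-fold, and it was 2.39-fold above parental cells. It was 1 of 51 snoRNA genes called higher, and 0 of 51 were called lower. Among all genes, 0.00502% were called higher and 0% lower, and that share is Snord14e itself. It was the only gene called of 19935, and its difference was the highest of them all. The call rests on 1 array with IL-3 that has no replicate. The call was lost when each array was centred on the median of its genes (adjusted p = 0.999) or of its small RNA genes (adjusted p = 0.907), and with a variance estimated from snoRNA genes alone (adjusted p = 0.176). The difference itself was 1.22 with each array centred on its genes.

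At an unadjusted p under 0.05, 5 of 51 snoRNA genes were higher with IL-3 and 0 lower, where 1.52% and 3% of all genes were. The other 4 of these were Snora73b and its copy Snora73a, which share sequence, Snord104 and Snord49b. All 4 had been below parental without IL-3. With a variance estimated from snoRNA genes alone, the same threshold gave 3 higher and 1 lower of 51. With each array centred, 5 were higher, and 1 (on its genes) or 2 (on its small RNA genes) lower. With IL-3, Snora73b was 0.70 above cells without (adjusted p = 0.362) and Snora73a 0.64 (adjusted p = 0.448). Snord104 was 0.48 above (adjusted p = 0.716) and Snord49b 0.39 above (adjusted p = 0.996). This comparison and the one with parental cells share A and B, so a low value there raises one difference and lowers the other.

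At the other end were Snord58b, Snord42a, Snord96a, Snord22 and Snord87, whose differences between the array with IL-3 and the pair without ran from -0.57 to -0.28. None passed (adjusted p = 1.00 for each). Snord58b stood at -0.30 with IL-3, -0.27 on A and 0.80 on B, so its difference rests on B. Snord87 had 0.15 with IL-3, 0.23 on A and 0.64 on B. Snora20 (-0.17), Snora21 (-0.11) and Snora3 (0.06) were among the lowest box H/ACA genes that lay on one side of A and B, and Snora33 (0.28) and Snord55 (0.25) among the highest of their classes.

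The 2 classes lay differently around the array with IL-3. In box H/ACA genes it was above both A and B in 12 of 20 and below both in 2. In box C/D genes it was above both in 10 of 31 and below both in 13. In all genes these shares were 39.9% and 25.5%. The median difference from cells without IL-3 was 0.10 over box H/ACA genes, -0.01 over box C/D genes and 0.03 over all genes. With each array centred on its genes or on its small RNA genes, it was 0.0547 or 0.0367 over box H/ACA genes and -0.0590 or -0.0770 over box C/D genes. Leaving out A or B, the box C/D median was -0.0409 or -0.0443. No test separates the classes here.

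Against the parental array, the array with IL-3 was above in 17 of 20 box H/ACA genes and 20 of 31 box C/D genes, with medians of 0.19 and 0.10. Over all genes 10491 were above and 9442 below, with a median of 0.01. These are 1 array against 1, with no replicate check. Past 2-fold, 1 snoRNA gene was higher (Snord14e) and 0 lower, where 1.1% and 0.517% of all genes were. All 3 BCR-ABL arrays were above the parental one in 16 of 51 snoRNA genes and below it in 6, where 23.6% and 31.5% of all genes were. The 3 share the 1 parental array, so its own error moves them together.

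The gaps between the 2 arrays without IL-3 were somewhat wider in snoRNA genes than in other genes, and wide in a few. The median gap size was 0.19 over box C/D genes, 0.15 over box H/ACA genes and 0.13 over all genes other than snoRNA genes. The SD of B minus A was 0.35 over box C/D genes, 0.25 over box H/ACA genes, 0.43 over the 3 small Cajal body RNA genes, 0.20 over 300 microRNA genes and 0.20 over all genes other than snoRNA genes. Of the other classes listed, only the 3 small Cajal body RNA genes had a wide spread, which is too few for a general statement, and 0 of them had a gap over 0.5. A gap over 0.5 was found in 4 of 51 snoRNA genes (7.84%) and in 1.94% of all genes. A and B were both above the parental array in 17 of 51 snoRNA genes and both below it in 15, where 27.9% and 42% of all genes were. This comparison of spreads is a description of 1 pair of arrays.

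The widest gaps went in both directions. Snord58b was at -0.27 on A and 0.80 on B, and Snord42a, above, was also higher on B. Snord16a, within the span of Rpl4, had 0.78 on A and -0.05 on B, with 0.25 on the array with IL-3. Snora75 had 0.52 on A and -0.10 on B, with 0.25 with IL-3. Snord73b had -0.36 on A and 0.13 on B, with -0.03 with IL-3. In all 5, A and B lay on opposite sides of the parental array, so their mean of 2 stands for neither.

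**Figure D3:**
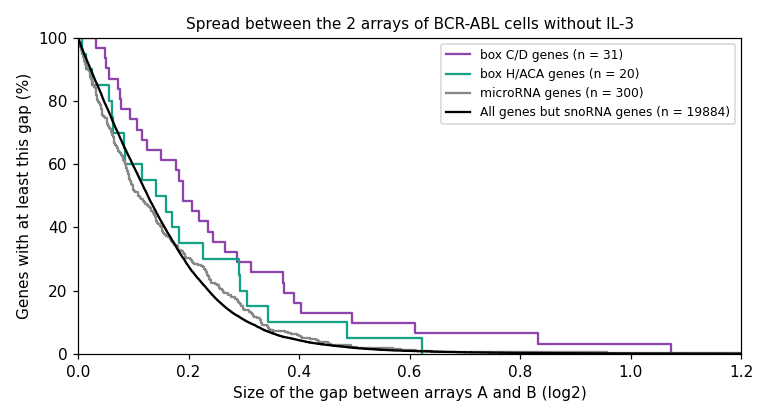
Share of genes (y axis, percent) whose 2 arrays without IL-3 differ by at least the log2 gap on the x axis, for box C/D, box H/ACA, microRNA and all other genes. The box C/D line lies above that of all other genes over most of the range, and 4 snoRNA genes have a gap over 0.5.

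Dim probe sets were counted among the snoRNA genes. Of the 51, 8 (15.7%) had a dim probe set, against 36.3% of all genes, and these were Snord52, Snord38a, Snord58b, Snord61, Snord15a, Snord85, Snora20 and Snora2b. Of the called genes, Snord52 and Snora20 are among them. No filter on dim probe sets was set, so all 51 entered the tests.

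The RefSeq gene table places 50 of the 51 snoRNA genes within the span of another gene, without regard to strand, which the table does not give. The exception was Snord118 (U8), which is known to have its own promoter and to act in processing of the large-subunit RNA. It stood at 0.12 with IL-3, 0.05 on A and -0.24 on B. The hosts were 43 genes. In 16 ribosomal protein genes lay 21 snoRNA genes, and 10 lay only in long non-coding genes. A host was measured with 1 symbol for 29 of the 50 (58.0%), too few for a summary over the set, so pairs are given singly.

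Snora23 and its host Ipo7, which codes for a nuclear import receptor, were both called higher. Ipo7 had 0.49 with IL-3, 0.58 on A and 0.85 on B, and without IL-3 was 0.72 above parental (adjusted p = 0.00835). Snora20 lies in Tcp1, a chaperonin subunit, which had 0.20 with IL-3, 0.30 on A and 0.49 on B and was not called (adjusted p = 0.179). All of these values are above 0.

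Some snoRNA genes and their hosts lay apart. Snord42b was called higher, while its host Rpl23a had -0.07 with IL-3, -0.10 on A and -0.19 on B. Snord37 lies in Eef2, a translation elongation factor gene, which stood at 0.03 with IL-3, -0.03 on A and -0.04 on B. Snord57 had -0.09 with IL-3, -0.01 on A and 0.14 on B, while its host Nop56 was called higher at 0.78 without IL-3 (adjusted p = 0.00289). Snord53 lies in Wdr43, a gene for a ribosome assembly factor, which was called higher at 0.57 (adjusted p = 0.0253) while Snord53 was at -0.21. Snord14e lies in Hspa8, a constitutive heat-shock protein gene, which stood at 0.18 with IL-3, 0.27 on A and 0.37 on B. In that pair the array with IL-3 was the highest for Snord14e and the lowest of the BCR-ABL arrays for Hspa8. Other pairs lay on one side: Snora62 and its host Rpsa were both below parental on all 3 arrays, with Rpsa at -0.09 with IL-3, -0.20 on A and -0.26 on B. Snord8 and Chd8 were also both below parental on all 3 arrays, with Chd8 at -0.39 with IL-3, -0.27 on A and -0.31 on B, and Chd8 was not called (adjusted p = 0.397).

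In 10 hosts lay 2 snoRNA genes each, and in 7 of the 10 both had the same sign of the difference between cells without IL-3 and parental cells. Of all 51, 27 were above 0 and 24 below. The 7 include the a and b genes of Snord42, Snord49, Snord73 and Snora73, while Snord15a and Snord15b differed in sign. Several signs rest on values near 0, such as Snord49a (-0.03) and Snora44 (0.04), and Snord33 (-0.02) and Snord35a (0.02) in a pair of opposite signs. Whether a host sets both was not tested. Snora73a and Snora73b of Snhg3 were closest, with at most 0.07 between them on any array. As copies they share sequence, and a probe may read both, so their closeness does not show 2 RNAs that move together. Snord95 and Snord96a of Rack1 were all above parental. They were within 0.04 on the array with IL-3 and on A, and 0.41 apart on B. Snora75 and Snord82, both of Ncl, the nucleolin gene, were up to 0.75 apart on 1 array, although 1 host carries both. Snora16a and Snora44 of Snhg12 were up to 0.44 apart.

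**Figure D4:**
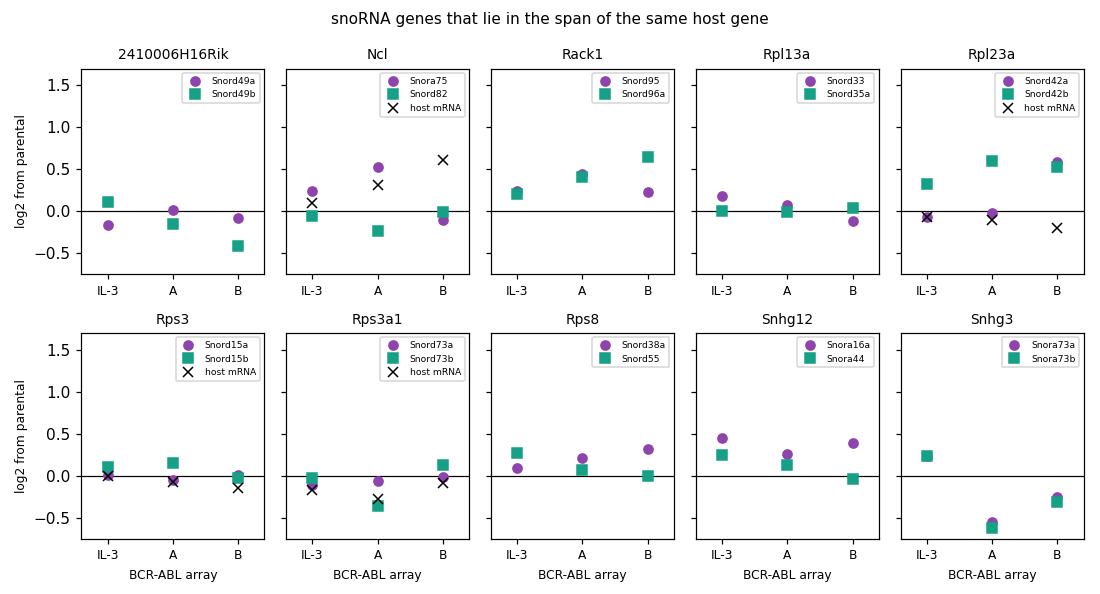
Log2 difference from the parental array (y axis) of pairs of snoRNA genes (circle and square) in the span of the same host (panels), on the array with IL-3 and on A and B (x axis), with the host mRNA as a cross where it was measured. The 2 copies in Snhg3, which share sequence, overlap on all 3 arrays, and the 2 genes in Ncl do not.

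The promoters of hosts of the called genes, and of Snhg3, are shown because a snoRNA cut from an intron is made only as its host is transcribed. The choice was made after the values were seen. Each is 160 bases from RefSeq (GRCm38.p6), from 150 before to 10 from the annotated start, 5′ to 3′ on the gene's strand. Capitals mark CACGTG (the E-box that Myc binds), TATAAA or a run of C and T near the start, as found in many genes for ribosomal proteins.
1110038B12Rik (host of Snord52), chr17:34952462-34952621, minus strand: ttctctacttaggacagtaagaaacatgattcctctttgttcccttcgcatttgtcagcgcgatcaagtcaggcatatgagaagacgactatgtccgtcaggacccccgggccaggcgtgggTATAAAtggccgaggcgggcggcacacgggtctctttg
Ipo7 (host of Snora23), chr7:110018165-110018324, plus strand: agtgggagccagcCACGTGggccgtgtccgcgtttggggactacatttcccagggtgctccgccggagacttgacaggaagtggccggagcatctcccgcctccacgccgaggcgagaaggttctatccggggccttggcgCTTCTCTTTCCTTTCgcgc
Tcp1 (host of Snora20), chr17:12916179-12916338, plus strand: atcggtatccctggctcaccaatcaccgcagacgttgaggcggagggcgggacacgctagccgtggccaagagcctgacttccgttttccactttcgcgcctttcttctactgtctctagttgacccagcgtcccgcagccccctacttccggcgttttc
Gm36220 (host of Snord104), chr11:106500765-106500924, plus strand: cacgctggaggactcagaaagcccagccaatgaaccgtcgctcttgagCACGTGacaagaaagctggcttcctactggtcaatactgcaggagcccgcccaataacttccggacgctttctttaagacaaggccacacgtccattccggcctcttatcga
Snhg3 (host of Snora73a and Snora73b), chr4:132353677-132353836, minus strand: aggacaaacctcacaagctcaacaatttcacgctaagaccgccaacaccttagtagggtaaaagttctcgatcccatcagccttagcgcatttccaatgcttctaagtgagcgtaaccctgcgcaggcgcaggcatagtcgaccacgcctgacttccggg

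The first of the 2 windows of 1110038B12Rik is shown, with TATAAA 28 bases before the start. The Ipo7 window has CACGTG 137 bases before the start and a C/T run of 15 letters that crosses it. Gm36220 has CACGTG 102 bases before the start. The motifs searched, on both strands for the first 2, were CACGTG and the motif TATAAA, and on the gene's strand a C/T run of at least 8 letters that reaches into the 20 bases before the start or past it. Their letters do not overlap in these windows. CACGTG was in 4.63% of 32851 RefSeq windows, TATAAA in 7.88% and the C/T run in 15.6%. Of 31 hosts with a window, 4 held CACGTG, 4 TATAAA and 9 the C/T run. A match describes letters only. Rpl23a and Hspa8, the hosts of Snord42b and Snord14e, had no entry.

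Several genes for proteins that bind or assemble snoRNAs were called higher in BCR-ABL cells without IL-3, while the medians of both snoRNA classes were near 0. Calls on this and the following lists come from the main fit and were not followed through the alternative settings. Over all genes, 1607 were called in the main fit and 936 with each array centred on the median of its genes. Of the 4 box C/D core protein genes, 3 were called higher and 0 lower, with a median difference of 0.66 from parental. Nop56 had 0.60 with IL-3, 0.80 on A and 0.75 on B (0.78 without IL-3, adjusted p = 0.00289). Nop58 was at 0.72 and Snu13, which binds the kink-turn of the snoRNA, at 0.59. Fbl, the methyltransferase fibrillarin, was at 0.44 (adjusted p = 0.113). Of the 4 box H/ACA core protein genes, 2 were called higher and 0 lower, with a median of 0.54. Dkc1, the pseudouridine synthase dyskerin, had 0.28 with IL-3, 0.80 on A and 0.86 on B (0.83 without IL-3, adjusted p = 0.00169). Nhp2 was at 0.58 and also called, while Nop10 was at 0.51 (adjusted p = 0.0534) and Gar1 at 0.43 (adjusted p = 0.124).

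Of 12 genes for assembly factors, 6 were called higher and 0 lower (median 0.39). Nolc1, a chaperone of snoRNP transport, was highest at 1.08 (adjusted p = 0.000157). The others were Nufip1 (0.66), Naf1 (0.61), Ruvbl1 (0.60), Shq1 (0.59) and Ruvbl2 (0.55). Of 10 genes for intron release and trimming, 2 were called higher, Dis3 (1.04), an exosome nuclease, and Exosc2 (0.65), and 0 lower. Of 6 non-coding host genes, 1 was called higher, Snhg5 at 0.60 (adjusted p = 0.0186), and Gas5 stood at 0.52 (adjusted p = 0.0539). Across these lists the background is the 5.19% of genes called higher. In BCR-ABL cells with IL-3 over those without, 0 genes on these lists were called in either direction, and the medians were -0.22 for box C/D proteins and -0.23 for box H/ACA proteins.

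**Figure D5:**
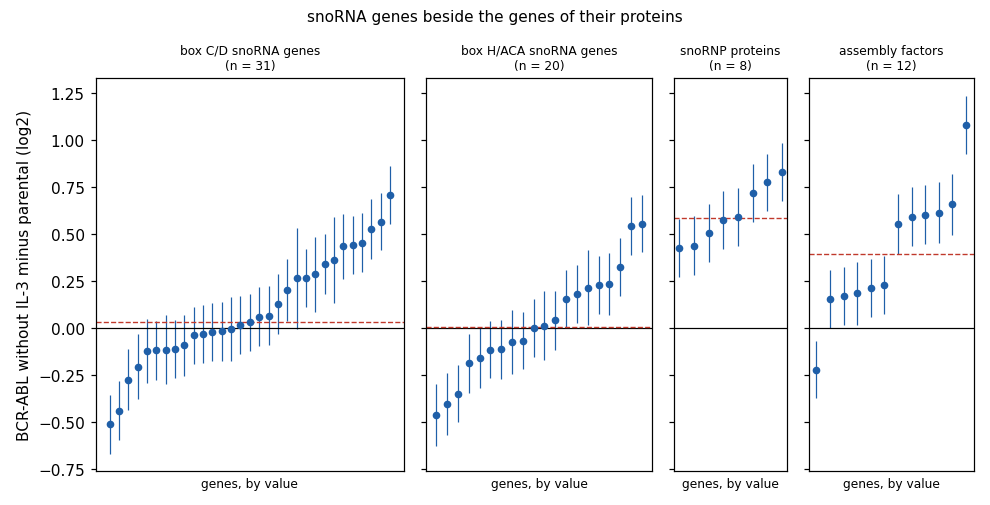
Log2 difference between BCR-ABL cells without IL-3 and parental cells (y axis) of the snoRNA genes of both classes, of the 8 core protein genes and of the 12 assembly factor genes, with genes in order of value. Bars show the SE of the limma fit and dashed lines the median of each panel, which is near 0 for both snoRNA classes and above 0 for both protein panels.

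The 3 small Cajal body RNA genes, which carry the same boxes but modify spliceosomal RNA, all lay below parental on all 3 BCR-ABL arrays. Scarna17 was at -0.16 with IL-3, -0.84 on A and -0.42 on B, and was called lower without IL-3 (-0.63 from parental, adjusted p = 0.0314). Of 300 microRNA genes, measured on the same arrays, 3 were called higher (1%) and 6 lower (2%) in that comparison. The shares over all genes were 5.19% and 2.87%.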

How the data were processed

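RNA was labelled as sense-strand cDNA for Affymetrix Gene 1.0 ST arrays, per the labels' protocols. As deposited, each value is a difference between an array and the parental one, read here as log2. The parental column is 0 in all 28815 probe sets. Background correction, normalization and log base are not given in the sources used here. Base 2 was assumed, and the folds and 2-fold counts rest on it. Of 86431 nonzero values, 99.5% are multiples of a step of 2 to the power -21 within printed rounding. Such a step comes from binary storage of the numbers, so it cannot tell the base. A probe set with an odd multiple was called dim. Values off this step were not counted, and a dim signal can also give an even multiple, so some dim probe sets can be missed.

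The platform annotation gave 1 symbol to 21780 probe sets, several to 1605 and none to 5430. A gene's probe sets were averaged, which left 19935 genes. All 4 arrays entered 1 limma fit (3.58.1, R 4.3.3) with 3 group means and 1 residual degree of freedom, from A and B. The lone arrays were taken to vary like that pair. The number of arrays limits the precision. Tests were two-sided.

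The snoRNA genes and the lists were chosen with earlier results of these data known. Named were the called genes, in each comparison the 5 box C/D and 3 box H/ACA genes highest and lowest with both arrays on one side, the 5 widest gaps between A and B, Snord14e, and hosts; other genes were named after their values were seen. The fit was tested on simulated data, with the noise of every array drawn from the differences between A and B. That test could not check whether the lone arrays vary like that pair. Alternatives were centring, probe set summary, dim probe sets, thresholds, priors, 1 group of 3 BCR-ABL arrays and leaving out A or B.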

Additional observations from a re-analysis of the deposited data

Results flagged for a closer look

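Snord14e differed between the BCR-ABL arrays with and without IL-3. Its log2 difference was 1.26 (1.265 in full) between BCR-ABL cells with IL-3 and those without (limma adjusted p = 0.0182), with the array with IL-3 above both A and B. Against A alone it was 1.45 and against B alone 1.08. The difference rests on 1 array with IL-3. The host Hspa8 differed by -0.14 in the same comparison.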

How the results depend on the processing

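Of 4 snoRNA genes called higher in BCR-ABL cells without IL-3 over parental cells, 2 were called with each array centred on the median of its genes (Snord42b and Snord52), 2 without dim probe sets (Snord42b and Snora23, the other 2 being left out as dim), 1 with the 3 BCR-ABL arrays as 1 group (Snora23) and 0 with a variance prior from snoRNA genes alone. The single gene called lower, Snord104, gave 0 under those settings, when arrays were centred on small RNA genes and with the median of probe sets. In BCR-ABL cells with IL-3 over those without, the 1 call, Snord14e, gave 0 under either centring (unadjusted, 5 higher and 1 lower on genes, 5 and 2 on small RNA genes) and under the separate prior (3 and 1), which was chosen after seeing the data. Snord14e without IL-3 over parental was 0.0297 (genes) or 0.0493 (small RNA genes) after centring, against -0.00657, and was not called. At a threshold of 0.1, Snord96a also passed. Over all genes, 1607 were called without IL-3 over parental and 936 after centring on genes. For the named genes 273 of 290 tested values kept direction and side of the threshold. Of the rest, 14 lost the call, 1 gained it and 2 (Snord14e, above) changed sign. The 290 do not include the fit with the 3 BCR-ABL arrays as 1 group, or genes that a setting left out. Losses there, given above, are not among the 14. Most of the 290 were of genes not called in the main fit, so keeping the side meant staying uncalled. All 14 losses were of called genes. Fitting only the groups compared repeats the main fit, since A and B alone give its spread, so its values could not change. Centring on genes and on small RNA genes moved the box C/D medians to 0.0656 and 0.0851 (without IL-3 over parental), -0.0590 and -0.0770 (with over without IL-3) and 0.0905 and 0.0920 (with IL-3 over parental, 0.102 without dim probe sets). It moved the box H/ACA medians to 0.0547 and 0.0367 (with over without IL-3) and 0.1798 and 0.1814 (with IL-3 over parental, 0.1701 with probe sets as features). Leaving out A or B, the box C/D medians ran from 0.0156 to 0.0449 over parental and from -0.0443 to -0.0409 with over without IL-3, and the box H/ACA medians from -0.0393 to 0.0639 over parental and from 0.0871 to 0.1346 with over without IL-3. Other than where fewer features were tested, the cause was not tested. The limma prior had 16.38 degrees of freedom in the main fit. It had 5.016 after centring on genes, 5.323 on small RNA genes and 4.802 with the 3 BCR-ABL arrays as 1 group. Leaving out A or B leaves no residual degree of freedom, so these are values with no test. Of 66 such values of named genes 1 changed sign, Snord14e without IL-3 over parental, which was 0.179 without A. The planned restriction of hosts to the same strand was not run, since no strand is given. No paired analysis was possible because the labels number only A and B, and the other groups have 1 array each.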
